A study of Mus musculus with 6 samples.

Results

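The genes described here are the transcriptional coactivators YAP (gene Yap1) and TAZ (Wwtr1), their DNA-binding partners Tead1, Tead2, Tead3 and Tead4, and 4 genes that YAP and TAZ are known to switch on in many cells, Amotl2, Axl, Nt5e and Wwc1. They were chosen by name, as 10 of the 52550 gene identifiers in the deposited gene table, and all 10 passed the filter on low counts. RNA sequencing was done on primary keratinocytes, the cells that build the epidermis, from the skin of wild-type C57BL/6 mice 0 to 2 days after birth. After 2 days in culture the cells received recombinant IL-33, an alarmin cytokine related to IL-1, for 12 h (3 libraries) or no treatment (3 libraries). No source used here gives the dose. The labels number the libraries of each group without naming the culture, litter or animal behind each, so p-values reflect the spread between libraries only, and that spread may be technical.

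YAP and TAZ do not bind DNA themselves. When the Hippo kinases Mst1/2 (Stk4 and Stk3) and Lats1/2 phosphorylate them they are held in the cytoplasm or degraded, and when they are not phosphorylated they enter the nucleus and act through TEAD proteins. In the epidermis, nuclear YAP is known to favour proliferation of basal keratinocytes, in development and in wound repair. Much of this control acts on the proteins, which transcript levels do not measure.

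The libraries held 34188173 to 45266298 deposited estimated counts, and IL-33 replicate 2 was the shallowest. Across all genes, edgeR's quasi-likelihood test called 11 of 15778 tested genes at an adjusted p under 0.05, which is 0.0697%. The summed level of 8 markers of basal keratinocytes was 37066 to 38188 CPM (a unit that scales counts to the size of each library) in untreated cells and 37289 to 40145 with IL-33, and that of 7 suprabasal markers was 102 to 145 and 110 to 124 CPM. Markers of other cells were present at low to moderate levels. Their sums in untreated and IL-33 libraries were 1139 to 1189 and 1137 to 1238 CPM for melanocytes, 150.0 to 184 and 147 to 188 CPM for fibroblasts, 23.1 to 29.0 and 25.9 to 26.4 CPM for endothelial cells, and 9.20 to 10.9 and 9.95 to 14.4 CPM for leukocytes, with the endothelial marker Emcn and the leukocyte markers of Langerhans cells, T cells and mast cells at 0. In bulk RNA, fewer cells of a type and less RNA per cell cannot be told apart.

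None of the 10 genes changed with IL-33 at an adjusted p under 0.05. The edgeR adjusted p-values ran from 0.740 to 0.943, and DESeq2 and limma-voom also called none. At an unadjusted p under 0.05 edgeR listed 1 of the 10, Amotl2, which was lower, against 6.74% of all tested genes, 3.31% on the lower side. Log2 fold changes (IL-33 minus untreated) ran from -0.28 for Wwtr1 to 0.24 for Tead1, with a median of -0.09 against 0.002 over all tested genes. In 7 of the 10 the log2 fold change was below 0, as it was in 49.5% of all tested genes. In 6 of the 10 genes the values of the 2 groups did not overlap. This was so in 13.7% of all tested genes, and in 15.5% of the 6886 genes at least as abundant as the least abundant of the 10. Wwtr1, Tead2, Tead4, Amotl2 and Axl were the 5 on the lower side (6.26% of all tested genes) and Wwc1 was the 1 on the higher side (7.39%).

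**Figure D1:**
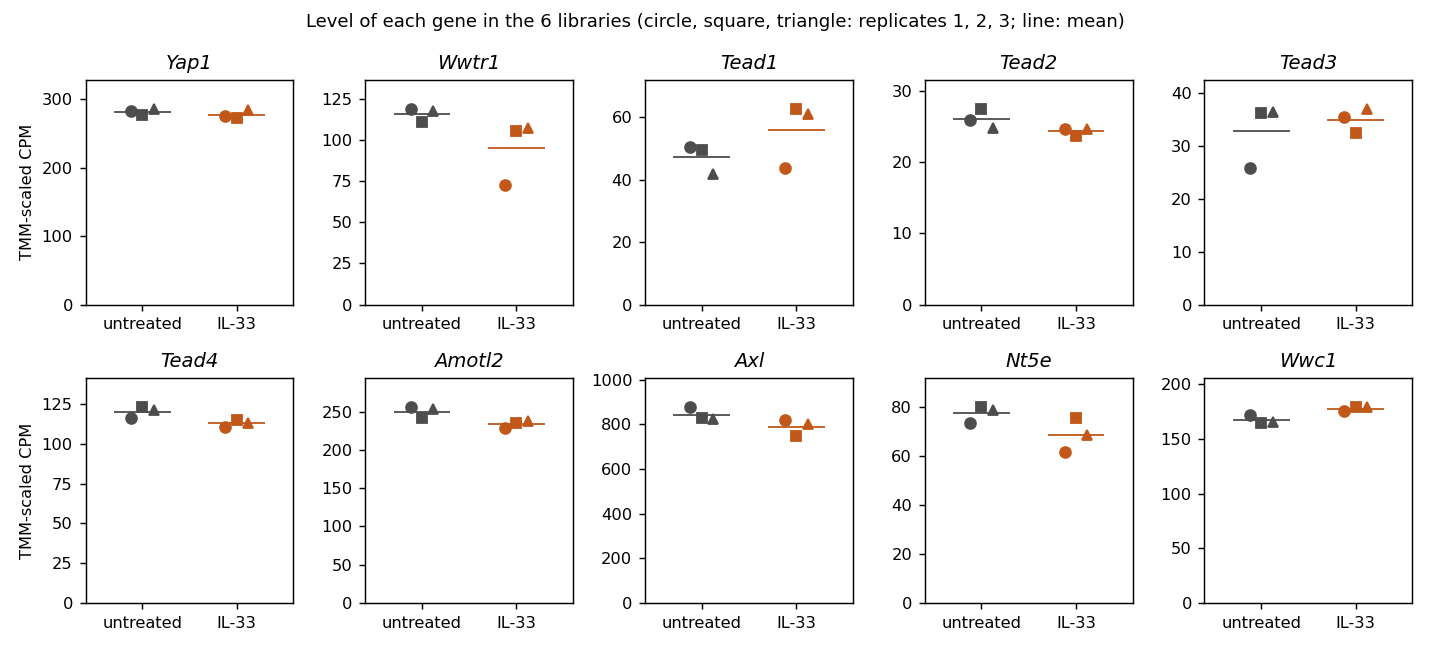
Level of each of the 10 genes in TMM-scaled CPM, the deposited count scaled to library size, with 1 point per library and a line at the mean of the 3 libraries of a group. The vertical axis of each panel starts at 0. In most panels the groups lie close together, and IL-33 replicate 1 (circle) is the low point of Wwtr1 at 72.8 CPM.

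Yap1 (ENSMUSG00000053110.13, chromosome 9, 7931999 to 8004596, minus strand; positions on GRCm38), the gene for YAP, stood at 283, 276 and 285 CPM in untreated replicates 1, 2 and 3 and at 276, 272 and 284 CPM in IL-33 replicates 1, 2 and 3. The groups overlapped, and all 6 values lay within a narrow band. The means were 281.5 ± 4.87 and 277 ± 5.88 CPM (SD, n = 3 per group), a log2 fold change of -0.02 with a standard error (SE) of 0.0385 and a 95% interval from -0.11 to 0.06 (edgeR adjusted p = 0.943). The interval was the narrowest of the 10, and with each library left out in turn the log2 fold change ran from -0.04 to -0.01.

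Wwtr1 (ENSMUSG00000027803.14, chromosome 3, 57455649 to 57575910, minus strand), the gene for TAZ, stood at 119, 111 and 117 CPM without and at 72.8, 105 and 107 CPM with IL-33. All 3 IL-33 values were below all 3 untreated values, and replicate 1 was far below the other two of its group. The means were 116 ± 4.23 and 95.2 ± 19.4 CPM (SD, n = 3 per group), a log2 fold change of -0.28 (SE 0.152, edgeR adjusted p = 0.777). Without IL-33 replicate 1 the log2 fold change was -0.12 (edgeR adjusted p = 0.831), so much of the difference rested on 1 library.

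On the FPKM scale, which divides by gene length so that genes can be set side by side, Yap1 was above Wwtr1 in each of the 6 libraries, by 1.23 to 1.96 times. Yap1 made up 55.2%, 56.3% and 55.7% of the summed Yap1 and Wwtr1 gene FPKM in untreated replicates and 66.2%, 57.2% and 57.7% in IL-33 replicates. The 3 IL-33 shares were all above the untreated ones, and replicate 1, where Wwtr1 was low, was the highest. The mean share differed by 4.64 percentage points (exact two-sided permutation test, p = 0.1, the smallest that 3 against 3 libraries allow), and by 1.73 points without IL-33 replicate 1. With FPKM summed over transcripts in place of gene FPKM, the difference was 2.71 points and the groups overlapped (exact permutation p = 0.2). On that scale the mean Yap1 share over the 6 libraries was 76.9%, against 58.0% on gene FPKM. The size of the Yap1 lead therefore depends on how length enters.

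One coding exon of Yap1 differs between its main transcripts. It has 48 bases (chr9:7950492-7950539, minus strand, GRCm38), a multiple of 3, and it is present in Yap1-201, Yap1-206 and Yap1-210 and absent from Yap1-202, the most abundant transcript. It is shown 5′ to 3′ in capitals between 15 bases of the neighbouring exons of Yap1-201, because the deposited transcript values count the forms with and without it separately.
Yap1-201: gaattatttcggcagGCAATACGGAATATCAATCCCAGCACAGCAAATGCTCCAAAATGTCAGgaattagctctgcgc
Transcripts with this exon made up 33.7%, 23.4% and 17.8% of the FPKM of the transcripts spanning it in untreated libraries, and 19.3%, 20.2% and 18.9% in IL-33 libraries. The groups overlapped (exact permutation p = 0.4), and the untreated libraries were spread more widely than the IL-33 ones. Yap1-202, which lacks the exon, made up 71.5% ± 10.5 of the FPKM summed over Yap1 transcripts in untreated cells and 79.8% ± 0.443 with IL-33 (SD, n = 3 per group). For Wwtr1, transcript Wwtr1-201 carried 93.9% ± 0.647 and 89.5% ± 9.87. This exon and the TEAD exons described next were chosen after the annotation and the values had been seen.

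TEAD proteins carry the DNA-binding domain, and the 4 paralogs recognise the same short sequence. Tead4 (ENSMUSG00000030353.15, chromosome 6, 128224288 to 128300823, minus strand) was the most abundant TEAD transcript, at 116, 123 and 121 CPM in untreated and 111, 115 and 113 CPM in IL-33 libraries. The IL-33 values were all below the untreated ones, by a small margin. The log2 fold change was -0.09 (SE 0.0483, 95% interval -0.20 to 0.02, edgeR adjusted p = 0.763).

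Tead1 (ENSMUSG00000055320.17, chromosome 7, 112679318 to 112906807, plus strand) stood at 50.5, 49.5 and 41.9 CPM in untreated and 43.9, 62.6 and 61.0 CPM in IL-33 libraries. Of the IL-33 libraries, replicates 2 and 3 lay above all untreated libraries and replicate 1 lay within their range. The log2 fold change was 0.24 (SE 0.143, edgeR adjusted p = 0.800). Without IL-33 replicate 1 it was 0.38, with the groups no longer overlapping (edgeR adjusted p = 0.511), and without IL-33 replicate 2 it was 0.15 (edgeR adjusted p = 0.961).

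Tead2 (ENSMUSG00000030796.17, chromosome 7, 45215753 to 45233644, plus strand) stood at 25.9, 27.5 and 24.9 CPM in untreated and 24.7, 23.7 and 24.6 CPM in IL-33 libraries. The highest IL-33 library was just below the lowest untreated one (log2 fold change -0.10, SE 0.0822, edgeR adjusted p = 0.855, and -0.06 without untreated replicate 2). Tead3 (deposited as ENSMUSG00000002249.19, chromosome 17, 28331671 to 28350817, minus strand) stood at 25.8, 36.2 and 36.4 CPM in untreated and 35.5, 32.4 and 36.9 CPM in IL-33 libraries. Only untreated replicate 1 lay apart, and it set the direction of the Tead3 difference. With it the log2 fold change was 0.09 (edgeR adjusted p = 0.925) and without it -0.06 (edgeR adjusted p = 0.974).

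In gene FPKM, Tead4 exceeded the sum of Tead1, Tead2 and Tead3 in each of the 6 libraries, by 1.75 to 2.17 times. Its share of the summed TEAD gene FPKM was 68.4%, 66.0% and 67.1% in untreated and 65.1%, 65.4% and 63.6% in IL-33 libraries. All IL-33 shares were lower, with a difference in means of -2.47 percentage points (exact permutation p = 0.1, the smallest possible). Tead3, Tead2 and Tead1 followed with mean shares over the 6 libraries of 15.7%, 10.7% and 7.73%. On FPKM summed over transcripts, Tead4 still led with 48.6%, and Tead1 came second with 21.6%, so the size of the lead and the place of Tead1 depend on how length enters. On that scale the Tead4 shares of the groups overlapped (exact permutation p = 0.5).

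**Figure D2:**
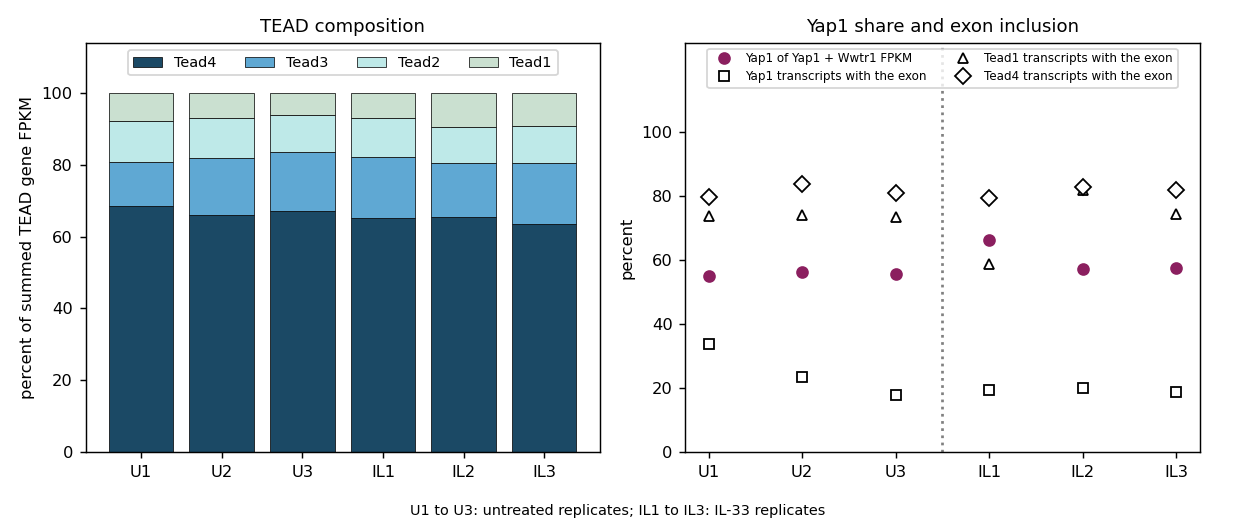
Left, percent of the summed gene FPKM of Tead1 to Tead4 that each gene takes in each library, as stacked bars from 0. Right, for each library, the percent that Yap1 takes of Yap1 plus Wwtr1 gene FPKM (filled circles) and the percent of transcript FPKM in forms that hold the named exon of Yap1, Tead1 or Tead4 (open symbols); IL-33 replicate 1 has the highest Yap1 share (66.2%) and the lowest Tead1 exon share (58.8%).

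Tead1 and Tead4 were annotated with an exon at which transcripts could be compared, and a Tead3 exon as long as that of Tead1 is shown beside it. Tead1 has a 12-base exon (chr7:112856053-112856064, plus strand) that some of its transcripts skip, and Tead3 has a 12-base exon in its main transcript (chr17:28335485-28335496, minus strand). Both keep the reading frame. They are shown 5′ to 3′ in capitals, each between 15 bases of its neighbouring exons, to set the paralogs side by side.
Tead1-201: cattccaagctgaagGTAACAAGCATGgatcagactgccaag
Tead3-206: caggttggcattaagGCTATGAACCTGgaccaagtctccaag
Position by position, 6 of the 12 exon bases are identical between the paralogs, and 21 of 42 with the flanks. The Tead4 exon that is in Tead4-201 and skipped in Tead4-203 is longer, with 129 bases (chr6:128247960-128248088, minus strand), and is shown whole.
Tead4-201: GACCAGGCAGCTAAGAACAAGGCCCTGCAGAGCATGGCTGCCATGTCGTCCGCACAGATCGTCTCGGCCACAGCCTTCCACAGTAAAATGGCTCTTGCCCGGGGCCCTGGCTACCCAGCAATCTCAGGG

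Transcripts with the Tead1 exon made up 73.9%, 74.2% and 73.4% of the spanning Tead1 FPKM in untreated libraries and 58.8%, 82.1% and 74.5% in IL-33 libraries. The untreated libraries were tightly grouped, and the IL-33 libraries lay on both sides of them (exact permutation p = 1). For Tead4 the exon was included in 79.8%, 83.9% and 81.1% of untreated and 79.5%, 83.0% and 81.9% of IL-33 transcript FPKM (exact permutation p = 0.9), so the groups covered nearly the same range. Every spliced Tead3 transcript spanning the site holds the 12-base exon, so its inclusion is 100% by annotation and carries no information on the treatment.

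Among all 85 deposited transcripts of the 10 genes, 48 passed the filter and none was called by edgeR (background 0.0299% of 40163 tested transcripts), nor by limma-voom. DESeq2, run without that filter, tested 74 of them and called 1 (background 0.726% of 74209 tested transcripts), Yap1-209, a transcript annotated as subject to nonsense-mediated decay that was not among the 48. Its deposited counts were 123, 73 and 9 in untreated and 3, 0 and 4 in IL-33 libraries, so the untreated libraries themselves ran from 9 to 123 (log2 fold change -4.84, DESeq2 adjusted p = 0.0364; range 0.0364 to 0.9999 over the 6 settings that tested it). At an unadjusted p under 0.05 edgeR listed 3 (background 4.24%), and 7 had groups that did not overlap (background 11.3%).

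All 3 transcripts with an unadjusted p under 0.05 belong to Tead2 and Tead3. Tead2-203 stood at 20.8, 22.8 and 16.7 CPM in untreated and 12.1, 14.3 and 8.60 CPM in IL-33 libraries, with groups apart (log2 fold change -0.78, SE 0.244, edgeR adjusted p = 0.9996). Tead2-201, the other main coding transcript, stood at 3.59, 4.14 and 5.95 CPM in untreated and 12.1, 5.20 and 15.03 CPM in IL-33 libraries, with groups overlapping (log2 fold change 1.24, edgeR adjusted p = 0.9996). As a share of the FPKM summed over Tead2 transcripts, Tead2-201 went from 20.3% ± 4.62 to 44.8% ± 22.5 and Tead2-203 from 57.1% ± 13.1 to 29.8% ± 6.84 (SD, n = 3 per group). The gene total moved far less than either form, and the assignment of reads between overlapping forms is an estimate of the deposited tables. Tead3-202, which retains an intron, stood at 8.99, 9.75 and 4.03 CPM in untreated and 0.776, 3.11 and 1.59 CPM in IL-33 libraries (log2 fold change -2.06, SE 0.641, edgeR adjusted p = 0.9996).

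The remaining transcripts with at least 10% of their gene's FPKM in either group include several that carry nearly the whole gene. Tead4-201 carried 81.5% ± 2.20 in untreated cells and 81.1% ± 2.12 with IL-33, Axl-201 94.3% ± 0.282 and 94.0% ± 0.453, Nt5e-201 98.0% ± 0.219 and 96.6% ± 1.40, and Wwc1-201 96.9% ± 0.957 and 97.9% ± 0.985 (SD, n = 3 per group). Tead1-207 carried 41.0% ± 12.3 and 32.5% ± 3.57, while Tead1-201 carried 13.4% ± 11.9 and 22.8% ± 13.6. These are shares of FPKM, which divides by length. In CPM the order was the reverse, with means of 21.45 and 35.2 for Tead1-201 and 10.7 and 7.15 for Tead1-207. Tead3-206 carried 63.2% ± 8.97 and 70.7% ± 6.86, and Tead3-203, which retains an intron, 7.67% ± 1.17 and 12.6% ± 4.30. Smaller shares were those of Tead1-214, which retains an intron (10.2% ± 3.91 and 11.6% ± 2.18), and Tead3-207 (10.0% ± 1.6 and 8.27% ± 1.84). Tead4-203 carried 16.3% ± 1.68 and 15.75% ± 1.38, and Wwtr1-202 6.1% ± 0.647 and 10.5% ± 9.87. For Amotl2, transcript Amotl2-208 took 29.6% to 37.1% in 5 libraries and 4.10% in IL-33 replicate 2, where Amotl2-211 took 79.8%. The Amotl2 gene level in that library, 235 CPM, was close to those of the other IL-33 libraries. The FPKM summed over its transcripts, on which these shares are based, was the lowest of the 6 libraries there, at 55.3. In CPM, which does not divide by length, Amotl2-211 had means of 202 and 193 in untreated and IL-33 libraries and Amotl2-208 of 21.5 and 15.1.

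The 4 target genes act in different places. Amotl2 (ENSMUSG00000032531.15, chromosome 9, 102716672 to 102733418, plus strand) encodes an angiomotin-like junction protein that binds YAP and holds it in the cytoplasm, so it is both a target and an inhibitor. It stood at 255, 241 and 253 CPM in untreated and 228, 235 and 238 CPM in IL-33 libraries. All IL-33 values were below all untreated values. The means were 249.8 ± 7.55 and 234 ± 4.96 CPM (SD, n = 3 per group), a log2 fold change of -0.10 (SE 0.0414, 95% interval -0.19 to -0.003, unadjusted p = 0.0440, edgeR adjusted p = 0.740).

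Axl (ENSMUSG00000002602.16, chromosome 7, 25757273 to 25788705, minus strand), a receptor tyrosine kinase that binds Gas6, was the most abundant of the 10. It stood at 876, 827 and 824 CPM in untreated and 822, 747 and 803 CPM in IL-33 libraries. The groups were separate by a narrow margin, between untreated replicate 3 and IL-33 replicate 1. The log2 fold change was -0.09 (SE 0.0451, 95% interval -0.19 to 0.01, edgeR adjusted p = 0.763), and -0.05 without IL-33 replicate 2, the shallowest library (edgeR adjusted p = 0.954).

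Nt5e (ENSMUSG00000032420.8, chromosome 9, 88327197 to 88372092, plus strand) encodes CD73, the surface enzyme that makes adenosine from AMP. It stood at 73.6, 79.8 and 78.8 CPM in untreated and 61.4, 75.3 and 68.6 CPM in IL-33 libraries. IL-33 replicate 2 lay within the untreated range and the other two lay below it (log2 fold change -0.18, SE 0.0796, unadjusted p = 0.0505, edgeR adjusted p = 0.744). Leaving out IL-33 replicate 1 gave -0.11, and leaving out IL-33 replicate 2 gave -0.25, neither called.

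Wwc1 (ENSMUSG00000018849.6, chromosome 11, 35838400 to 35980527, minus strand) encodes Kibra, a scaffold that promotes activation of the Lats kinases. It stood at 172, 165 and 166 CPM in untreated and 175, 179 and 179 CPM in IL-33 libraries. All IL-33 values were above all untreated values, opposite to Amotl2 and Axl (log2 fold change 0.08, SE 0.0424, 95% interval -0.01 to 0.18, edgeR adjusted p = 0.763).

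**Figure D3:**
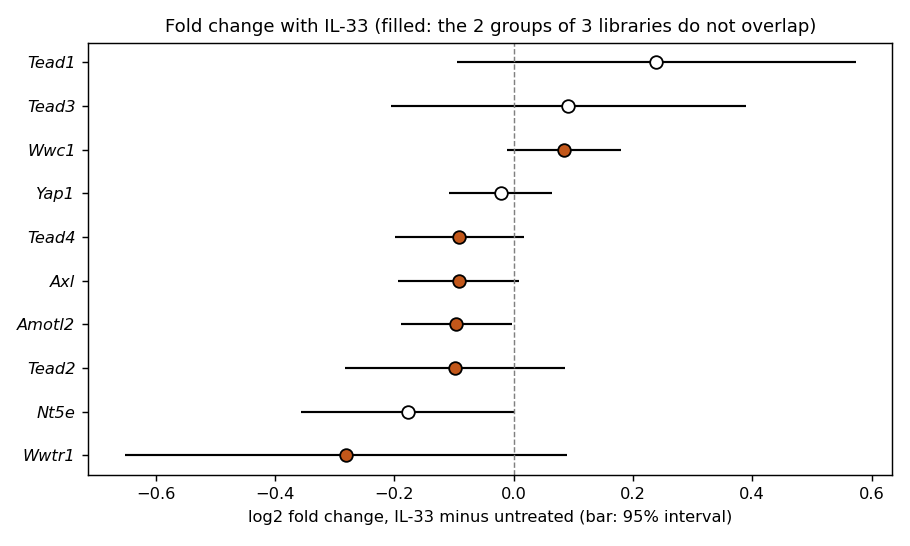
Log2 fold change (IL-33 minus untreated) of each of the 10 genes with its 95% interval from edgeR; filled circles mark the 6 genes whose 2 groups of 3 libraries did not overlap. The Amotl2 interval ends at -0.003, and those of the other 9 genes include 0.

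Ordered by mean gene FPKM over the 6 libraries, Axl came first with 146 FPKM (range 133.5 to 157). Amotl2 followed with 34.6 FPKM (range 32.7 to 36.6), then Wwc1 with 31.3, Tead4 with 29.1, Yap1 with 27.2 and Wwtr1 with 19.8 FPKM. The lower group held Nt5e with 7.63, Tead3 with 6.92, Tead2 with 4.72 and Tead1 with 3.41 FPKM. Axl was 4.22 times the next gene, and the smallest gap without overlap of ranges was between Amotl2 and Wwc1, at 1.10 times. The ranges of Wwc1 and Tead4, of Tead4 and Yap1, and of Nt5e and Tead3 overlapped, so the order of these neighbours is not settled by these libraries, although Tead4 was above Yap1 in each of the 6.

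The order depends on the length each gene is divided by. The length was checked in 9 of the 10 genes, without Tead3, whose deposited identifier has another version than the annotation used here. The deposited gene FPKM of these 9 followed the count divided by the length of all annotated exons together. It did so to within a factor of 1.005 per library, and that length is large for genes with many alternative exons. When the deposited FPKM of a gene's transcripts were summed instead, Axl (178 FPKM) and Amotl2 (72.1 FPKM) still led. Yap1 moved to rank 3 with 66.9 FPKM, and Tead1 from rank 10 to rank 7 with 16.7 FPKM. Wwtr1 differed least between the scales, with 19.8 and 20.2 FPKM.

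**Figure D4:**
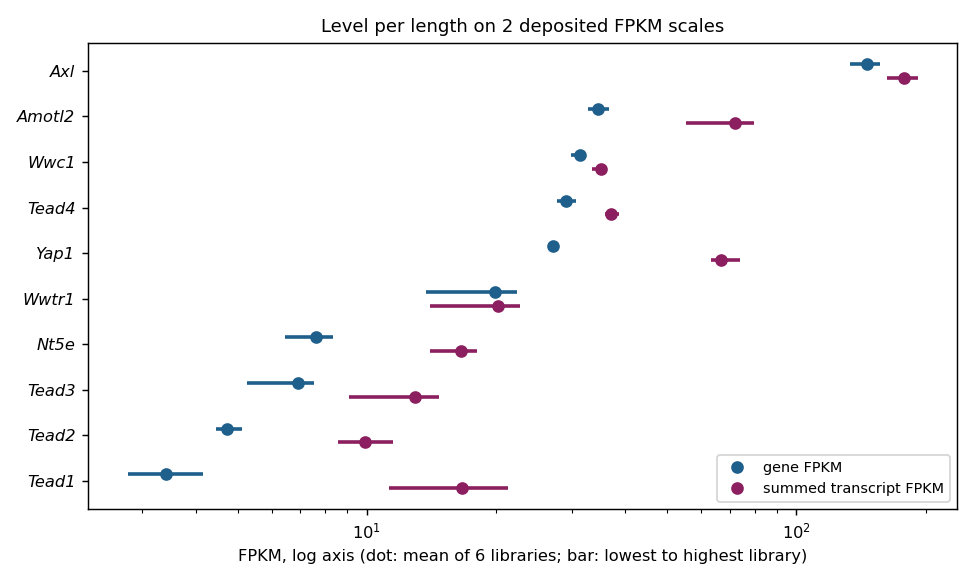
Mean level of each gene over the 6 libraries on a log axis in FPKM, as deposited for the gene (blue) and as the sum over its deposited transcripts (purple), with bars from the lowest to the highest library. Tead1 is the lowest gene on the gene scale, at 3.41 FPKM, and stands at 16.7 FPKM on the transcript scale.

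The motif bound by TEAD proteins was looked for in the promoters of the 10 genes. Windows of 300 bases (250 before the start and 50 after it, RefSeq on GRCm38.p6) were on hand for 8 of the 10, without Tead1 and Tead4. GGAATGT, on either strand, was in at least 1 window of 4 of these 8 genes, Axl, Yap1, Amotl2 and Tead3, and in 4.47% of 27025 genes. The shorter GGAATG, which GGAATGT contains, was in 5 of 8, adding Wwtr1, and in 16.6% of all genes. The 4 matches are shown with 10 bases on either side, 5′ to 3′ on the strand of the gene, with the motif or its reverse complement ACATTCC in capitals, because these genes include both a coactivator and a TEAD gene besides the targets.
Axl: aaattctacaGGAATGTttaccagacc
Yap1: ggagtctgcaGGAATGTagcgacgcgc
Amotl2: tgaaactctcACATTCCtggcatagca
Tead3: ctcattccgtACATTCCggccatcccc
The Axl match (chr7:25788950-25788976, minus strand) lies 233 bases before the start, that of Yap1 (chr9:8004721-8004747, minus strand) 141, that of Tead3 (chr17:28350699-28350725, minus strand) 115 and that of Amotl2 (chr9:102717728-102717754, plus strand) 66 bases before it. Distances are to the RefSeq start of the window. For Amotl2 and Tead3 that start lies downstream of the GENCODE gene start given above. The matches of both are therefore inside the gene as GENCODE draws it. A match is a description of these letters, and no binding was measured here. The log2 fold changes of the 4 genes were -0.09, -0.02, 0.09 and -0.10 for Axl, Yap1, Tead3 and Amotl2, and none of them passed the test.

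The other genes of the pathway were read from 5 lists, the Hippo kinases and scaffolds, the junction and polarity proteins that feed into them, the cofactors of TEAD, a published conserved list of YAP and TAZ target genes, and further known targets. Without the 10 genes above they held 75 genes, of which 70 were tested and none was called by edgeR (background 0.0697%). The smallest adjusted p was 0.319. At an unadjusted p under 0.05 there were 7, with 5 higher and 2 lower (background 6.74%), and limma-voom called none. DESeq2, which called 71 genes in all (0.302%), called 1 of them, Fat1 (adjusted p = 0.00865; range over all settings 0.00865 to 0.776). The groups did not overlap in 15 of the 70, with 10 higher and 5 lower (background 13.7%). The median log2 fold change was -0.0007, against 0.002 over all tested genes.

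Among the 19 kinases and scaffolds, 1 was higher and 1 lower at an unadjusted p under 0.05 (background 6.74% of all tested genes). The kinases Stk3 and Stk4 were level between the groups, at 21.8 ± 0.439 and 21.8 ± 2.47 CPM for Stk3 and 107 ± 4.89 and 106 ± 1.07 CPM for Stk4 (SD, n = 3 per group). Mob1a, the adaptor that activates Lats, had 69.7, 63.9 and 52.9 CPM in untreated and 70.8, 274 and 284 CPM in IL-33 libraries. Of the IL-33 libraries, 2 were far above the untreated ones and replicate 1 was at their level (log2 fold change 1.75, SE 0.613, edgeR adjusted p = 0.740). Lats2, a kinase of YAP and itself on the target list, showed a similar split, with 59.6, 70.9 and 69.4 CPM in untreated and 52.6, 111 and 104 CPM in IL-33 libraries (log2 fold change 0.42, edgeR adjusted p = 0.851).

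IL-33 replicate 1 was thus apart from the other IL-33 libraries in Mob1a and Lats2, as in Wwtr1 and Tead1. Without it, edgeR called Mob1a (log2 fold change 2.16, adjusted p = 0.00211; range over all settings 0.00211 to 0.958) and Lats2 (0.68, adjusted p = 0.0325; range 0.0325 to 0.9998), and 20 genes in all (0.123%) against 11. The Mob1a and Lats2 calls are no separate evidence, since the library left out is the one whose values differed in these same genes. What sets this library apart was not tested. Frmd6, an upstream FERM-domain protein, went from 212 ± 7.06 to 193 ± 2.42 CPM (log2 fold change -0.13, edgeR adjusted p = 0.676), and Nf2, the gene for Merlin, from 134.5 ± 1.64 to 143 ± 1.58 CPM (0.09, adjusted p = 0.763). Stk38, a kinase related to Lats, went from 50.2 ± 1.44 to 55.1 ± 2.99 CPM (log2 fold change 0.13, edgeR adjusted p = 0.763).

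Of the 18 junction and polarity genes, 3 were higher and 1 lower at an unadjusted p under 0.05 (background 6.74% of all tested genes, 3.31% on the lower side). The lower one, the giant cadherin Fat1, stood at 1842, 1827 and 1808 CPM in untreated and 1611, 1539 and 1357 CPM in IL-33 libraries. The groups were well apart, with the untreated libraries tightly grouped (log2 fold change -0.28, SE 0.0575, edgeR adjusted p = 0.319). Fat1 was also called by edgeR without IL-33 replicate 3 (log2 fold change -0.21, adjusted p = 0.0395), a setting that called 0.553% of all genes. The related Fat4 was scarce and went from 0.850 ± 0.196 to 1.53 ± 0.411 CPM (log2 fold change 0.84, edgeR adjusted p = 0.740). Amot, the angiomotin related to Amotl2, went from 30.0 ± 0.118 to 33.9 ± 1.87 CPM (log2 fold change 0.18, edgeR adjusted p = 0.740), in the opposite direction to Amotl2, and the phosphatase Ptpn21 from 59.5 ± 0.868 to 66.2 ± 4.40 CPM (0.15, adjusted p = 0.740).

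Of 7 TEAD cofactors 5 were tested, and Vgll1 and Vgll2 were listed at 0 in every library. Vgll3, which competes with YAP for TEAD, went from 94.9 ± 1.37 to 88.3 ± 3.95 CPM (log2 fold change -0.10, edgeR adjusted p = 0.763). Vgll4, a repressor of TEAD, stood at 92.7 ± 2.27 and 95.4 ± 8.48 CPM and the coactivator Ncoa3 at 58.8 ± 2.02 and 60.4 ± 2.06 CPM (SD, n = 3 per group).

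Of the 19 conserved target genes 18 were tested, with 7 log2 fold changes above 0, 11 below 0 and a median of -0.01. The most used readouts of YAP activity, Ccn1 and Ccn2, had slightly lower group means with IL-33, and neither was called. Ccn1 had 328, 326 and 311 CPM in untreated and 316, 303 and 285 CPM in IL-33 libraries, with overlap between the groups (log2 fold change -0.10, SE 0.0475, edgeR adjusted p = 0.763). Ccn2 had 77.3, 79.3 and 76.1 CPM in untreated and 78.7, 71.7 and 65.2 CPM in IL-33 libraries, also with overlap (log2 fold change -0.11, edgeR adjusted p = 0.814). Ankrd1, another common readout, had 5 deposited counts in untreated replicate 3 and 0 in the other 5 libraries, so no comparison was possible. Igfbp3, which binds insulin-like growth factors, had the smallest p of the list, with 44.7 ± 3.79 and 52.2 ± 2.20 CPM (log2 fold change 0.22, edgeR adjusted p = 0.720). Foxf2 and Rbms3 had log2 fold changes of -0.35 and 0.16 (edgeR adjusted p = 0.793 and 0.794).

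Of 16 further targets 14 were tested, with 5 log2 fold changes above 0, 9 below 0 and a median of -0.02. Areg, the EGF receptor ligand amphiregulin, was scarce, at 1.64 ± 0.413 and 1.02 ± 0.306 CPM (log2 fold change -0.68, edgeR adjusted p = 0.763). Thbs1, the matrix protein thrombospondin, stood at 546 ± 26.1 and 516 ± 9.74 CPM, and Dlc1 at 60.7 ± 3.81 and 55.4 ± 1.72 CPM (log2 fold changes -0.08 and -0.13, edgeR adjusted p = 0.763 for both). Tgfb1i1, a focal adhesion protein, went from 25.6 ± 2.01 to 28.7 ± 1.89 CPM (log2 fold change 0.17, edgeR adjusted p = 0.777).

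**Figure D5:**
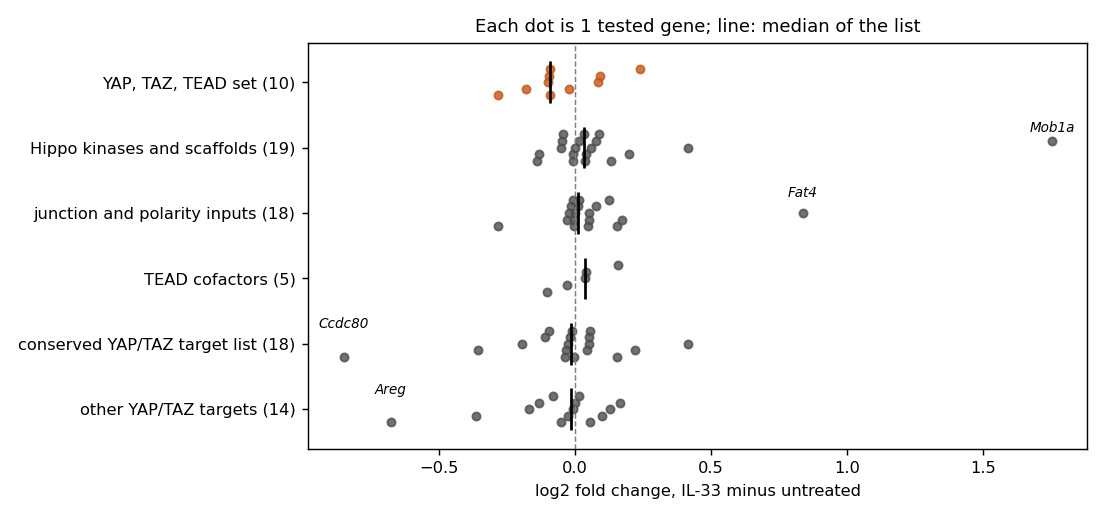
Log2 fold change (IL-33 minus untreated) of every tested gene of the 10-gene set and the 5 pathway lists, 1 dot per gene with a line at the median of each list and the number of tested genes in brackets. Medians run from -0.09 for the 10 genes to 0.04 for the TEAD cofactors; Mob1a lies at 1.75, and the labelled Ccdc80, picked for its low value, was not called.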

How the data were processed

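RNA was sequenced from 3 untreated and 3 IL-33 libraries. Per the file headers, the authors deposited estimated counts and FPKM, each per gene and per transcript. The submitters' processing notes name StringTie 1.3.4d, HISAT2 2.1.0, DESeq2 1.18.1, FastQC 0.11.7 and build mm10, without roles. No rounding was needed, since the deposited estimated counts are whole, but low values pile up at multiples of 4 (2209 transcripts at 4 against 1940 at 3 and 1854 at 5 in untreated replicate 1), so they are not plain read counts. Names and positions come from GENCODE M21 on GRCm38, which matched 52403 of 52550 identifiers and may not be the authors' release.

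The main test was edgeR 4.0.16 in R 4.3.3 (quasi-likelihood, robust, TMM scaling, minimum count 10) over all genes, with Benjamini-Hochberg adjustment and a threshold of 0.05, and likewise over transcripts. CPM are TMM-scaled. Alternatives were other scalings, filters, counts divided by 4, DESeq2 1.42.0, limma-voom (limma 3.58.1), limma on log2 FPKM with 0.1 or 1 added, the replicate block, and each library left out. In simulated counts for this comparison over 15778 genes, edgeR recovered 6% of 50 genes changed 1.25-fold, 48% at 1.5-fold, 74% at 2-fold and 92% at 3-fold. All these changed genes were in the same run, which also called 12 genes that had not been changed. No 2 libraries were alike within sampling noise.

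Named were all 10 genes, up to 4 genes per pathway list with the smallest p, Ccn1, Ccn2, Ankrd1, Lats2, Stk3 and Stk4, and transcripts with at least 10% of their gene's FPKM. A gene that this rule names among the TEAD cofactors is not reported here. The 10 genes, the lists and the exons were chosen with earlier results of these data known. Overlap of exons with other genes touched Yap1 (Gm20416, antisense) and Tead2 (Cd37, antisense), each with at most 3 mean counts in a group.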

Additional observations from a re-analysis of the deposited data

How the results depend on the processing

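None of the 10 genes was called under any of 18 alternatives, and 179 of 180 pairs of gene and alternative kept their direction. The exception was Tead3 without untreated replicate 1, with a log2 fold change of -0.060 (-0.060 to 0.17 over the 6 libraries left out in turn). The number of the 10 at an unadjusted p under 0.05, which was 1, was 2 with DESeq2, size factors from the median ratio, library totals, a minimum count of 50 or counts divided by 4, 3 with no filter, 0 with upper-quartile factors and with each of 3 limma fits on FPKM, and 0 to 2 with each library left out. Which genes these were differed, with Amotl2 not among them in DESeq2, limma-voom or the block. The share of all tested genes at that threshold ran from 4.55% with DESeq2 to 9% without IL-33 replicate 3. The number whose groups did not overlap was 4 to 7, and 4 with upper-quartile factors (background 14%), where Tead2 and Axl overlapped. It was 6 or 7 with a library left out, where the background rose to between 22% and 27.1% of all tested genes. Pathway genes called were 1 with DESeq2 and 0 to 2 with a library left out, and transcripts of the 10 genes called were 1 with DESeq2. Over all genes, edgeR called 11, DESeq2 71, and edgeR without IL-33 replicate 3 called 90. The Yap1 share over the 6 libraries was 58.0%, against 72.7% on CPM and 76.9% on summed transcript FPKM. The Tead4 share was 65.9%, against 51.3% and 48.6%. Tead1 ranked 10 of 10 on gene FPKM and 7 on summed transcript FPKM, a setting chosen after seeing the data. The causes were not tested.

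Libraries with the same replicate number did not deviate together (r = 0.0309, -0.00453 and -0.0231 across genes), so the numbers were not taken as pairs. With the replicate block, 0 of the 10 genes were called, 2 had an unadjusted p under 0.05 (Axl and Nt5e), and 8 genes were called in all. Recovery in simulated counts was 6% for 1.25-fold changes, so most differences of the size seen in the 10 genes would be missed with these libraries.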
